A study of Mus musculus with 12 samples.

Results

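The 8 genes described are members of the primitive red cell programme: the embryonic globin genes Hba-x, Hbb-bh1 and Hbb-y, the transcription factor genes Klf1 and Gfi1b, the erythropoietin receptor gene Epor, the heme synthesis gene Alas2 and the membrane transporter gene Slc4a1. They were chosen by name, and all 8 were matched by Ensembl identifier among the 38924 genes counted. The RNA came from mouse embryos at stage E7.25 that carried Foxa2Cre:Rosa26-YFP, in which Cre made from Foxa2 switches on a yellow fluorescent protein, so that YFP marks cells with a history of Foxa2 expression. All 4 sorted types came from this line, with 3 replicates each: YFP-positive cardiac mesoderm, labelled ventricular, YFP-negative cardiac mesoderm, labelled non-ventricular, endoderm gated on EPCAM, and hematopoietic mesoderm gated on KDR. KDR is a receptor of blood and vessel precursors, so its gate can hold future endothelial as well as blood cells. The labels give no count of cells and do not say whether embryos were pooled or whether replicates came from separate litters. The p-values below therefore measure only the spread between these libraries, which may be technical.

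The first red cells of the mouse form in the blood islands of the yolk sac, from mesoderm that also gives rise to endothelium. TAL1, LMO2, RUNX1 and GATA2 act early in this mesoderm, while GATA1, KLF1 and GFI1B act as cells commit to the red cell line, when globin, heme and membrane genes are switched on. Primitive red cells use the zeta-like globin made by Hba-x with the beta-like globins made by Hbb-bh1 and Hbb-y, which later give way to adult globins.

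The beta-like globin genes are close relatives, and reads aligned to more than 1 place were not given to any gene, so a gene with a near copy could be listed at 0 for that reason. The first 90 coding bases of Hbb-bh1, of Hbb-y and of the adult gene Hbb-bs are shown to let their likeness be seen, with capitals at bases that differ from Hbb-bh1 (GENCODE transcripts on GRCm38).
Hbb-bh1: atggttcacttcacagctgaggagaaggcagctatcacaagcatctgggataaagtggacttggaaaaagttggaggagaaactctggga
Hbb-y: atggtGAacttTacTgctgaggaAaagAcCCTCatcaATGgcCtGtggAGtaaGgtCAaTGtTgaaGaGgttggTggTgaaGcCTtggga
Hbb-bs: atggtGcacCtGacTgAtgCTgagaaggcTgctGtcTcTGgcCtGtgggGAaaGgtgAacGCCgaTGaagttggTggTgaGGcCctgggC
Hbb-y differed from Hbb-bh1 at 30 of the 90 bases and was 76.4% identical to it over the 444 coding bases. Hbb-bs differed at 29 of the 90 and was 74.1% identical. Every 50-base window of the Hba-x, Hbb-bh1 and Hbb-y transcripts was found in no other gene. For the adult genes the share of unique windows was lower, at 46.8% for Hbb-bs, 41.7% for Hbb-bt, 27.7% for Hba-a1 and 10.7% for Hba-a2.

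Bases upstream of the RefSeq start were available for 6 of the 8 genes, and 4 are shown because their readings differed: Klf1, Gfi1b and Epor were detected and Hbb-y was not (GRCm38.p6, 5′ to 3′ on the gene's strand). Each stretch stops at the more upstream of the RefSeq and GENCODE starts, which left 196 of 250 bases for Klf1 and 241 for Hbb-y, whose stretches end short of the RefSeq start. Capitals mark AGATAA or TGATAA, the letters bound by GATA factors, and CCACCC, the core of the sites bound by KLF1, each sought on both strands, so that the first pair can read TTATCT or TTATCA.
Klf1 (chr8:84901732-84901927, plus strand): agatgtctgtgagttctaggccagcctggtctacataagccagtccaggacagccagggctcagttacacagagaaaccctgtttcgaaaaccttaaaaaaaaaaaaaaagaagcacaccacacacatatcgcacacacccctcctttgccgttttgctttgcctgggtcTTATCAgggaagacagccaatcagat
Gfi1b (chr2:28621983-28622232, minus strand): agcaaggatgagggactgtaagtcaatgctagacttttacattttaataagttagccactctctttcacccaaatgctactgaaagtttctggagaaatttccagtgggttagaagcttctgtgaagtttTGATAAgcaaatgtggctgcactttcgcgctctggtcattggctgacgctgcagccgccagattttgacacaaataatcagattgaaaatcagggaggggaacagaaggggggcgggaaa
Epor (chr9:21963577-21963826, minus strand): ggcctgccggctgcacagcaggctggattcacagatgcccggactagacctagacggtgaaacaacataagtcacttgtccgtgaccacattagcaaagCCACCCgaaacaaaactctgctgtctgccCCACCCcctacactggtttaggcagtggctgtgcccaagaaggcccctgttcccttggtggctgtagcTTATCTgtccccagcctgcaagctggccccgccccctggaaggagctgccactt
Hbb-y (chr7:103853217-103853457, minus strand): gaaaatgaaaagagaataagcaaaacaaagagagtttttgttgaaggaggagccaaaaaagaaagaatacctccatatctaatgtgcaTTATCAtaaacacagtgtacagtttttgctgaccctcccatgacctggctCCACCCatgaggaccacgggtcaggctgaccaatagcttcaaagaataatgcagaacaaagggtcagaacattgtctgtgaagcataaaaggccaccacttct
In the 250 bases before the start, each of the 6 genes held 1 match to AGATAA or TGATAA, against 16.6% of 32851 mouse promoters with any. Counted from the RefSeq start, the match lay 80 bases upstream in Klf1, 120 in Gfi1b, 54 in Epor, 162 in Hbb-y, 108 in Hba-x and 86 in Alas2. CCACCC occurred in 28.1% of all promoters. It had 1 match in Hbb-y, 1 in Hba-x, 2 in Epor and 3 in Alas2, and none in Klf1 or Gfi1b. A match describes the letters only and is not a measurement of binding.

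Gene counts totalled 4472800 to 7888631 per library, and levels are given as CPM, counts scaled to library size by the trimmed-mean method. A count of 3, taken as the floor of detection, stood for 0.355 to 0.720 CPM. Kdr, the gene of the gate, had 2759, 4042 and 4594 counts in the hematopoietic mesoderm libraries (662, 698 and 962 CPM). It was also high in cardiac mesoderm, at 521, 620 and 474 CPM in the YFP-positive and 487, 539 and 442 in the YFP-negative libraries. Endoderm was at 9.97, 4.77 and 16.3 CPM, so Kdr set hematopoietic mesoderm apart mainly from endoderm. In hematopoietic mesoderm, replicates 1 and 3 both held more genes low in that library alone than replicate 2, and replicate 3 held the most. Of the 8250 genes with at least 40 counts in 2 or more libraries of that type, 374 (4.53%) had 3 counts or fewer in replicate 3 alone, against 265 (3.21%) for replicate 1 and 39 (0.473%) for replicate 2. That share was 1.05% to 2.02% in YFP-positive cardiac mesoderm, 0.299% to 0.733% in YFP-negative cardiac mesoderm and 0.0646% to 0.111% in endoderm. The tests that rest on hematopoietic mesoderm are given below with and without replicate 3. Gfi1b, Hbb-bh1 and Gata1 were among the genes low in replicate 3 alone. Its omission is therefore no independent support for genes that were low there, or whose level there lay nearest the other types.

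Of the 8 genes, 4 were detected mainly in hematopoietic mesoderm, namely Gfi1b, Klf1, Hbb-bh1 and Epor. Alas2 was read in all 12 libraries and was not highest in hematopoietic mesoderm. Hba-x, Hbb-y and Slc4a1 had 0 counts in all 12. Leaving Alas2 aside, the number of the 8 genes above 3 counts was 3 in hematopoietic mesoderm replicate 1, 4 in replicate 2 and 0 in replicate 3, while among the other 9 libraries it was 1 in endoderm replicate 3 and 0 elsewhere. In such sorted bulk samples, fewer cells that express a gene and less RNA per cell cannot be told apart.

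**Figure D1:**
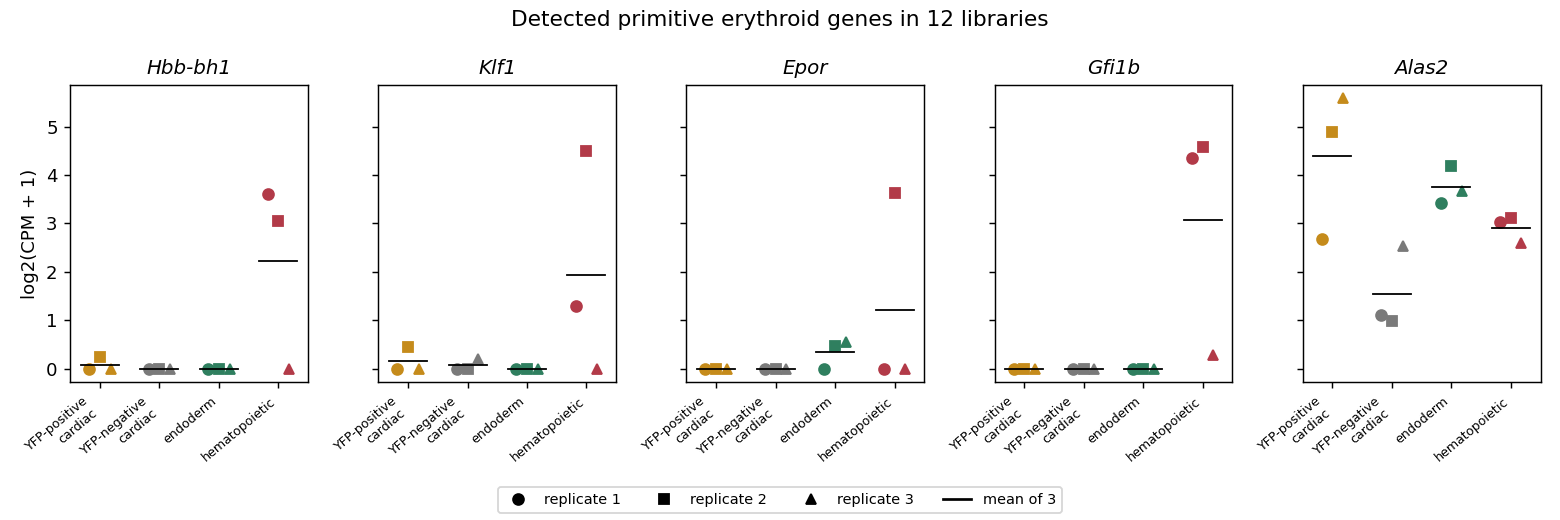
Levels of the detected genes in each library, with log2(CPM + 1) on the vertical axis and the 4 sorted types along the horizontal axis; each point is 1 library, its shape the replicate, and lines are means of the 3 plotted values. Gfi1b and Hbb-bh1 lie above the floor in hematopoietic mesoderm replicates 1 and 2, Klf1 is highest in replicate 2, Epor in replicate 2, and Alas2 is spread over all 4 types.

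Gfi1b, which encodes a zinc finger repressor needed for red cell and platelet precursors, was the gene read most clearly in hematopoietic mesoderm. It had 81, 132 and 1 counts in hematopoietic mesoderm replicates 1, 2 and 3 (19.4, 22.8 and 0.209 CPM, 14.1 ± 12.2, SD, n = 3) and 0 in each of the other 9 libraries. Replicates 1 and 2 were thus alone above the floor of 3 counts, and replicate 3 was below it. Against 3 counts per library, its mean was at least 24.7-fold higher than in YFP-positive cardiac mesoderm, 31.4-fold than in YFP-negative cardiac mesoderm and 34.9-fold than in endoderm.

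Klf1, the activator of adult and embryonic globin, heme and membrane genes, rested mostly on 1 library. Hematopoietic mesoderm held 6, 126 and 0 counts (1.44, 21.8 and 0 CPM, 7.73 ± 12.2, SD, n = 3), against 0, 2 and 0 in YFP-positive cardiac mesoderm, 0, 0 and 1 in YFP-negative cardiac mesoderm and 0 in the 3 endoderm libraries. Replicate 3 overlapped the other types. The ratio of pooled hematopoietic mesoderm to YFP-positive counts was 70.5, with an exact 95% counting interval of 19.1 to 588, and that to YFP-negative counts was 180, with an interval of 31.7 to 7154. Such intervals cover counting error only, not the spread between replicates. Against endoderm the mean was at least 19.1-fold higher.

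Epor, the receptor through which erythropoietin keeps red cell precursors alive, was read in 1 hematopoietic mesoderm library. Its counts there were 0, 66 and 0 (0, 11.4 and 0 CPM, 3.80 ± 6.58, SD, n = 3), with 0, 3 and 4 in endoderm and 0 in the 6 cardiac mesoderm libraries. Endoderm replicate 3 therefore held more Epor counts than hematopoietic mesoderm replicates 1 and 3. The pooled ratio to endoderm was 14.4, with an exact 95% counting interval of 6.62 to 37.2, and it came wholly from replicate 2. Without that library hematopoietic mesoderm was at 0 and the sign of the fitted log2 difference turned to -3.94 (edgeR adjusted p = 0.486), a size that depends on the small prior count of the fit.

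Hbb-bh1 was the only globin gene with any count. It had 47, 42 and 0 counts in hematopoietic mesoderm (11.3, 7.251 and 0 CPM, 6.18 ± 5.72, SD, n = 3), 1 count in YFP-positive cardiac mesoderm replicate 2 and 0 in the other 8 libraries. Replicates 1 and 2 lay above every library of the other types, and replicate 3 lay among them. The pooled ratio to YFP-positive cardiac mesoderm was 95.1, with an exact 95% counting interval of 16.6 to 3797. The mean was at least 13.7-fold higher than in YFP-negative cardiac mesoderm and at least 15.2-fold higher than in endoderm.

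The other embryonic globins and Slc4a1, the anion exchanger of the red cell membrane, were at 0 in all 12 libraries, so that each library allows at most the 3 counts of the floor. The other 7 globin genes matched, the adult genes Hba-a1, Hba-a2, Hbb-bs and Hbb-bt among them, were also at 0 throughout. Adult globin RNA, which maternal blood would carry, was therefore not read at this depth, although many reads from the adult genes would align to more than 1 place.

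Compared per kilobase of exon, the order within hematopoietic mesoderm differed between replicates. In replicate 1 the level of Hbb-bh1 was 18.4 CPM per kilobase, that of Gfi1b 10.6, that of Alas2 3.00 and that of Klf1 0.942. In replicate 2 Klf1 was highest at 14.2, followed by Gfi1b at 12.5, Hbb-bh1 at 11.8, Epor at 5.73 and Alas2 at 3.16. In replicate 3 Alas2 alone was above the floor, at 2.09. With 3 libraries that do not share an order, neighbours in it were not separable.

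The expression filter of edgeR kept 14170 genes and, of the 8, only Alas2, since the other 4 detected genes were low in too many libraries. In the edgeR quasi-likelihood test Alas2 was called in 0 of the 6 pairs of types, at a Benjamini-Hochberg adjusted p under 0.05. The background was 1.79% of genes called for hematopoietic mesoderm against YFP-positive cardiac mesoderm, 0.593% against YFP-negative cardiac mesoderm and 5.65% against endoderm. For the remaining pairs it was 1.54% for YFP-positive cardiac mesoderm against endoderm, 1.31% for YFP-negative cardiac mesoderm against endoderm and 0% between the cardiac fractions, where 1062 genes had an unadjusted p under 0.05.

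The 4 genes that the filter removed were tested without it, over 23650 genes. Of their 12 tests against the other 3 types, 11 had an unadjusted edgeR p under 0.05. Many genes passed that looser threshold. In the filtered edgeR fit 2766, 2472 and 3234 of 14170 genes did so against YFP-positive cardiac mesoderm, YFP-negative cardiac mesoderm and endoderm. The unfiltered share at that threshold is not given here. Of the 12 tests, 0 passed the adjusted threshold in edgeR, beside 1.3%, 0.736% and 2.85% of all genes called in the same order. Gfi1b came nearest, with edgeR adjusted p of 0.0986, 0.120 and 0.0608 in that order. For Hbb-bh1 the edgeR adjusted p was 0.218, 0.173 and 0.0942, for Klf1 0.243, 0.231 and 0.0874, and for Epor 0.202, 0.233 and 0.417.

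Over hematopoietic mesoderm replicates 1 and 2 alone, the mean level was 21.1 CPM for Gfi1b, 11.6 for Klf1, 9.27 for Hbb-bh1 and 5.70 for Epor. Replicate 3 held 1 count of Gfi1b and 0 of Klf1, Hbb-bh1 and Epor, so leaving it out raises their means by design. Calls without it are therefore no independent support for these genes. Without replicate 3 the edgeR calls depended on the filter. With the default filter, which then kept Gfi1b and Hbb-bh1, neither was called: the edgeR adjusted p was 0.0729, 0.0943 and 0.0555 for Gfi1b and 0.130, 0.103 and 0.0632 for Hbb-bh1, where 2.79%, 1.43% and 4.28% of all genes were called. With the filter also off, Gfi1b passed in edgeR against all 3 types, with an adjusted p of 0.0314, 0.0353 and 0.0214 against YFP-positive cardiac mesoderm, YFP-negative cardiac mesoderm and endoderm, where 2.83%, 1.91% and 3.51% of all genes were called. Klf1 passed against endoderm only, at 0.0427, and Hbb-bh1 missed the threshold there at 0.0513. DESeq2 with all libraries and no filter called Gfi1b against endoderm (adjusted p = 0.0377). It called 9.22% of all genes in that comparison. The voom method of limma with quality weights, in which an outlying library counts for less, called Gfi1b against all 3 types (adjusted p = 0.00706, 0.00279 and 0.000362). It also called Hbb-bh1 against YFP-negative cardiac mesoderm (0.0285) and endoderm (0.00558), and Klf1 against endoderm (0.0186). The background of that method was 1.17%, 2.4% and 12.2% of all genes.

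Alas2 encodes the erythroid form of the enzyme that starts heme synthesis, and its pattern did not follow the other 4 genes. Its counts were 26, 159 and 255 in YFP-positive cardiac mesoderm, 7, 7 and 33 in YFP-negative cardiac mesoderm, 61, 133 and 100 in endoderm and 30, 44 and 24 in hematopoietic mesoderm. The mean level was 27.1 ± 20.9 CPM in YFP-positive cardiac mesoderm, 12.9 ± 3.85 in endoderm, 6.61 ± 1.39 in hematopoietic mesoderm and 2.30 ± 2.13 in YFP-negative cardiac mesoderm (SD, n = 3 each). YFP-positive cardiac mesoderm was highest on average, but its 3 libraries overlapped both endoderm and hematopoietic mesoderm. The 3 YFP-negative libraries lay below every library of the other types.

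Of the 6 differences in Alas2, that between the cardiac fractions was the widest. On the log2 scale YFP-positive cardiac mesoderm was 3.54 ± 1.09 (SE) above YFP-negative cardiac mesoderm, with an edgeR adjusted p of 0.626 and an unadjusted p of 0.00648, whereas DESeq2 gave an adjusted p of 0.0275 where it called 0.685% of genes, and 0.00394 with no filter, where it called 0.892%. YFP-negative cardiac mesoderm differed from endoderm by -2.47 ± 1.05 (SE, edgeR adjusted p = 0.403), and DESeq2 with no filter called this difference (0.0473) beside 3.1% of genes. Hematopoietic mesoderm differed from YFP-positive cardiac mesoderm by -2.03 ± 1.03 (SE, edgeR adjusted p = 0.300), from YFP-negative cardiac mesoderm by 1.51 ± 1.02 (adjusted p = 0.497) and from endoderm by -0.96 ± 1.00 (adjusted p = 0.647). YFP-positive cardiac mesoderm against endoderm gave 1.07 ± 1.00 (adjusted p = 0.733).

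The place of Alas2 in the genome bears on its counts. The gene (chrX:150547375-150570638, plus strand, GRCm38) shares 311 of its 2403 exon bases with Apex2, a DNA repair endonuclease gene on the opposite strand, and 88.5% of its 50-base windows were unique. The strand setting of the counting is not given in the sources used here, so reads of the shared bases cannot be assigned with certainty. Apex2 had 843, 430 and 945 counts in YFP-positive cardiac mesoderm, 610, 628 and 608 in YFP-negative cardiac mesoderm, 683, 511 and 757 in endoderm and 255, 437 and 68 in hematopoietic mesoderm. Over the 12 libraries, Pearson's r of log2(CPM + 1) between Alas2 and Apex2 was 0.18 and Spearman's rho 0.0769, a description of libraries that share types. Whether reads from Apex2 contributed to Alas2 was not tested.

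**Figure D2:**
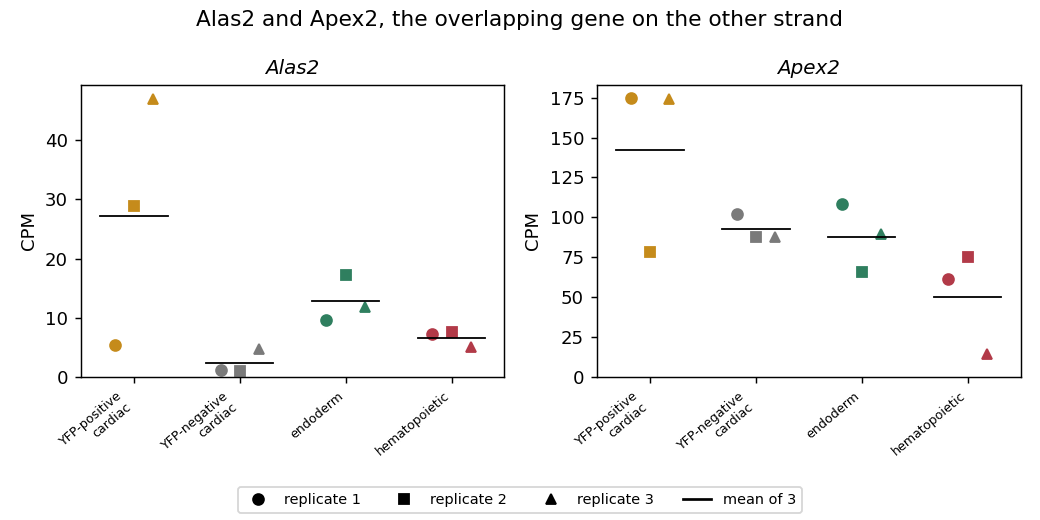
Levels of Alas2 (left) and Apex2 (right) in CPM on separate vertical scales, by sorted type along the horizontal axis; each point is 1 library, its shape the replicate, and lines are means of 3. Alas2 is highest in YFP-positive cardiac mesoderm replicate 3, while Apex2 is as high in replicate 1 of that type, where Alas2 has 26 counts.

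Genes most like each detected gene were sought by Pearson's r of log2(CPM + 1) over the 12 libraries among 14170 tested genes, as a description. For Gfi1b the nearest were Emx2 (r = 0.974), Smim3 (0.940) and Naa25 (0.917), and for Hbb-bh1 they were Emx2 (0.975), Smim3 (0.933) and Kif1b (0.921). Emx2 had 240, 275 and 0 counts in hematopoietic mesoderm and at most 15 elsewhere, and so followed the same pair of libraries. For Klf1 the nearest were Esam (0.920), an endothelial junction gene, Laptm5 (0.901) and Acer2 (0.836), and for Epor Hspa1a (0.927), Atp6v0e2 (0.914) and Stat5a (0.909). These 6 genes peaked in hematopoietic mesoderm replicate 2, from 69 counts of Esam to 193 of Acer2, so their likeness rests on that library. For Alas2 the nearest were Ranbp17 (0.893), Pard6a (0.813) and Rnf152 (0.812).

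The wider erythroid programme was read from a list of 68 symbols, of which 65 were matched and 50 passed the filter. In edgeR, 4 of the 50 were higher in hematopoietic mesoderm than in YFP-positive cardiac mesoderm, 2 than in YFP-negative cardiac mesoderm and 7 than in endoderm, and 0 were lower in any of the 3. Among all genes the share called higher was 0.635%, 0.191% and 2.42% in that order. Without hematopoietic mesoderm replicate 3 the counts called in either direction were 6, 5 and 8, and 1 of them in each comparison was lower. The share of all genes called was then 2.79%, 1.43% and 4.28%. With all 12 libraries, all calls but 1 fell among transcription factors and cofactors, 19 of which were tested. Their median log2 difference was 3.10, 2.72 and 1.46 against YFP-positive cardiac mesoderm, YFP-negative cardiac mesoderm and endoderm, beside -0.03, -0.02 and -0.07 for all genes tested, and the first became 2.39 with a gene at 0 in 1 type set to its bound. Without replicate 3 these medians were 3.62, 2.42 and 2.04.

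**Figure D3:**
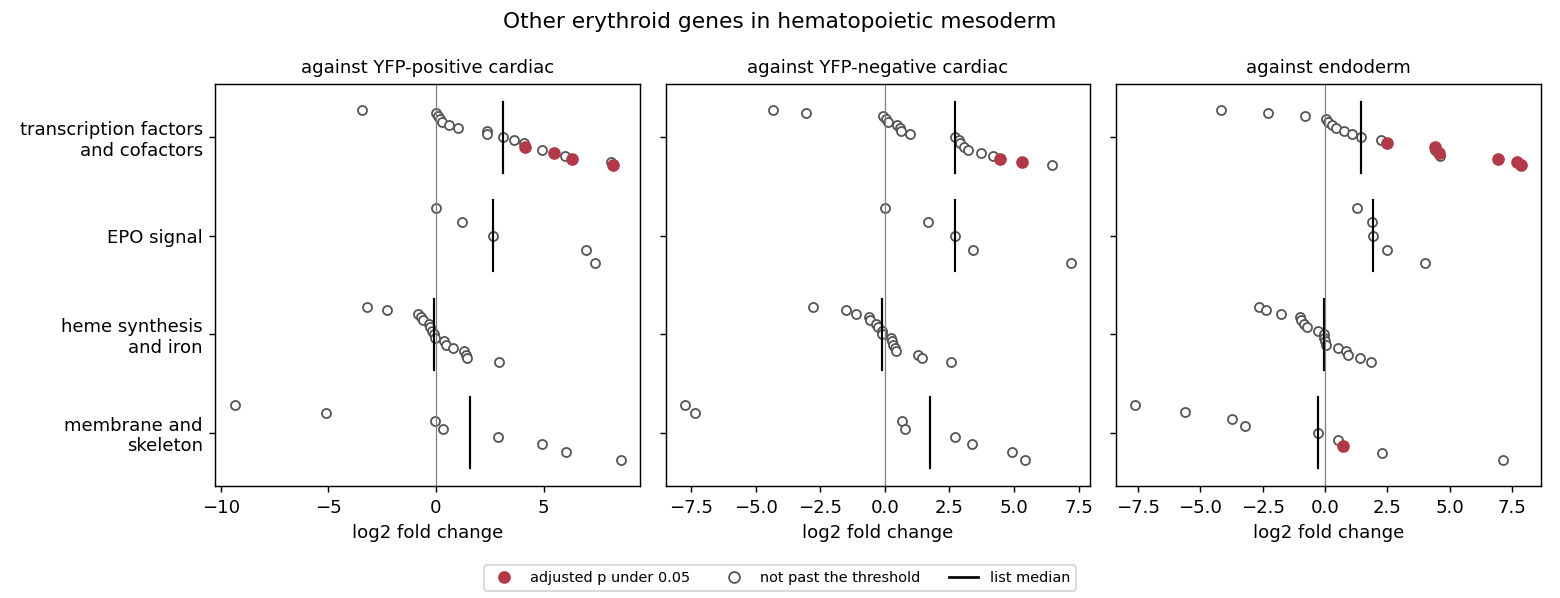
Log2 difference of hematopoietic mesoderm from each other type for the tested genes of each erythroid list, 1 point a gene, with filled points for an edgeR adjusted p under 0.05 and a bar at the list's median. The transcription factor points lie mostly above 0 (medians 3.10, 2.72 and 1.46), and the heme and iron genes spread to both sides of 0 with medians near it; genes at 0 counts in both types are not drawn.

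Runx1, needed for blood stem and progenitor cells to form, was called in all 3 comparisons. It stood at 736, 946 and 510 CPM in hematopoietic mesoderm and at 4.77 to 96.2 CPM in the other 9 libraries, with no overlap. Its log2 difference was 4.14 ± 0.78 (SE, edgeR adjusted p = 0.0218) from YFP-positive cardiac mesoderm, 4.46 ± 0.79 (0.0290) from YFP-negative cardiac mesoderm and 4.56 ± 0.80 (0.00743) from endoderm. Without hematopoietic mesoderm replicate 3 all 3 calls held (edgeR adjusted p = 0.0163, 0.0163 and 0.00816). The call against YFP-positive cardiac mesoderm was lost without YFP-positive replicate 3, in voom and with only the 2 types fitted. That against YFP-negative cardiac mesoderm was lost without any 1 of the YFP-negative libraries and with the replicate number as a block (0.0508), and that against endoderm without endoderm replicate 1 or 2 (highest 0.0540).

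Gata2 and Tal1, regulators of early blood mesoderm, rose against endoderm and were called there under all 14 alternatives. Gata2 was at 381, 388 and 373 CPM in hematopoietic mesoderm and at 1.27, 0.773 and 3.31 in endoderm, a log2 difference of 7.70 ± 1.05 (SE, edgeR adjusted p = 0.00156). Tal1 was at 469, 355 and 270 CPM in hematopoietic mesoderm against 0.791, 0.644 and 3.08 in endoderm, a log2 difference of 7.87 ± 1.13 (adjusted p = 0.00202). Both genes lay above every endoderm library in hematopoietic mesoderm replicate 3 as well. The rise over endoderm was shared by the YFP-positive and YFP-negative cardiac fractions. For Gata2 they lay above endoderm by 4.09 and 4.79 on the log2 scale (edgeR adjusted p = 0.0427 and 0.0229). For Tal1 these differences were 5.49 and 5.15 (0.0167 and 0.0238). Between hematopoietic mesoderm and the cardiac fractions both genes missed the threshold, with edgeR adjusted p of 0.0514 and 0.122 for Gata2 and 0.162 and 0.154 for Tal1. Without hematopoietic mesoderm replicate 3 the sides of the threshold did not change for either gene.

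Lmo2, the bridging partner of TAL1, stood at 198, 240 and 112 CPM in hematopoietic mesoderm and rose by 5.46 ± 1.16 on the log2 scale against YFP-positive cardiac mesoderm (SE, edgeR adjusted p = 0.0392) and by 4.40 ± 1.10 against endoderm (0.0376). Lyl1, a relative of TAL1, rose by 8.22 ± 1.70 (0.0358) and 6.95 ± 1.57 (0.0265) in the same comparisons, from 12.7, 25.2 and 38.9 CPM in hematopoietic mesoderm. Zfpm1, the cofactor of GATA1, rose against endoderm only, by 2.47 ± 0.57 (0.0278). It was at 75.9, 90.6 and 33.7 CPM in hematopoietic mesoderm and, in a similar range, at 37.1 to 75.7 in the cardiac fractions. These calls were less steady: against endoderm, Lmo2 was called in 1 of 6 fits that left out a library of the pair, Zfpm1 in 1 and Lyl1 in 3. Against YFP-positive cardiac mesoderm Lmo2 was called in 2 of 6 and Lyl1 in 3, and Lyl1 lost that call with the replicate number as a block (edgeR adjusted p = 0.0685). All 5 calls held without hematopoietic mesoderm replicate 3, with edgeR adjusted p of 0.0121 to 0.0478. That replicate was the lowest of its type for Lmo2 and Zfpm1, so its omission is no independent support for their calls. For Lyl1 it was the highest.

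Myb, which keeps blood progenitors dividing, was called against both cardiac fractions, by 6.33 ± 1.08 (SE, edgeR adjusted p = 0.0142) and 5.32 ± 1.02 (0.0370). Without hematopoietic mesoderm replicate 3 these became 6.86 ± 0.75 (0.000800) and 5.86 ± 0.71 (0.00200). The first call held in 11 of 14 alternatives and was lost without YFP-positive replicate 3, in voom and with only the 2 types fitted. The second held in 7 of 14 and in 2 of 6 fits that left out a library, and was lost with the replicate number as a block (0.0908), in voom and with only the 2 types fitted. Its levels in hematopoietic mesoderm were 101, 81.7 and 5.86 CPM, and endoderm held 22.2, 31.6 and 36.3 CPM, above hematopoietic mesoderm replicate 3. Gata1, the main activator of red cell genes, had 308, 269 and 1 counts in hematopoietic mesoderm (74.0, 46.4 and 0.209 CPM), and 66, 78 and 42 in endoderm. It passed no comparison (edgeR adjusted p = 0.104, 0.332 and 0.515), and without replicate 3 it passed against YFP-positive cardiac mesoderm (0.0413). Ikzf1, a blood cell zinc finger factor, was at 409, 353 and 35.6 CPM in hematopoietic mesoderm and passed no comparison either (edgeR adjusted p = 0.159, 0.0902 and 0.0901), while without replicate 3 it passed against YFP-negative cardiac mesoderm (0.0455). Replicate 3 was thus low for Gata1, Myb and Ikzf1, as for Gfi1b and Hbb-bh1, while Gata2, Tal1 and Runx1 stood there at 373, 270 and 510 CPM.

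Bcl11a, known as a repressor of embryonic globin genes in adult red cells, went the other way. It was at 0.960, 0.518 and 17.8 CPM in hematopoietic mesoderm and at 17.0 to 176 in the other 9 libraries, so that only replicate 3 reached their range. With all libraries it missed the threshold (edgeR adjusted p = 0.141, 0.204 and 0.0569). Without replicate 3 it was lower than in all 3 other types, with log2 differences of -6.56 ± 1.14 from YFP-positive cardiac mesoderm (SE, edgeR adjusted p = 0.0103), -6.16 ± 1.12 from YFP-negative cardiac mesoderm (0.0182) and -7.30 ± 1.17 from endoderm (0.00481). Leaving out the only replicate in the range of the other types lowers the mean by design, so these 3 calls are no independent support. With the replicate number as a block and all libraries Bcl11a was lower than in YFP-positive cardiac mesoderm (edgeR adjusted p = 0.0428) and endoderm (0.00890).

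**Figure D4:**
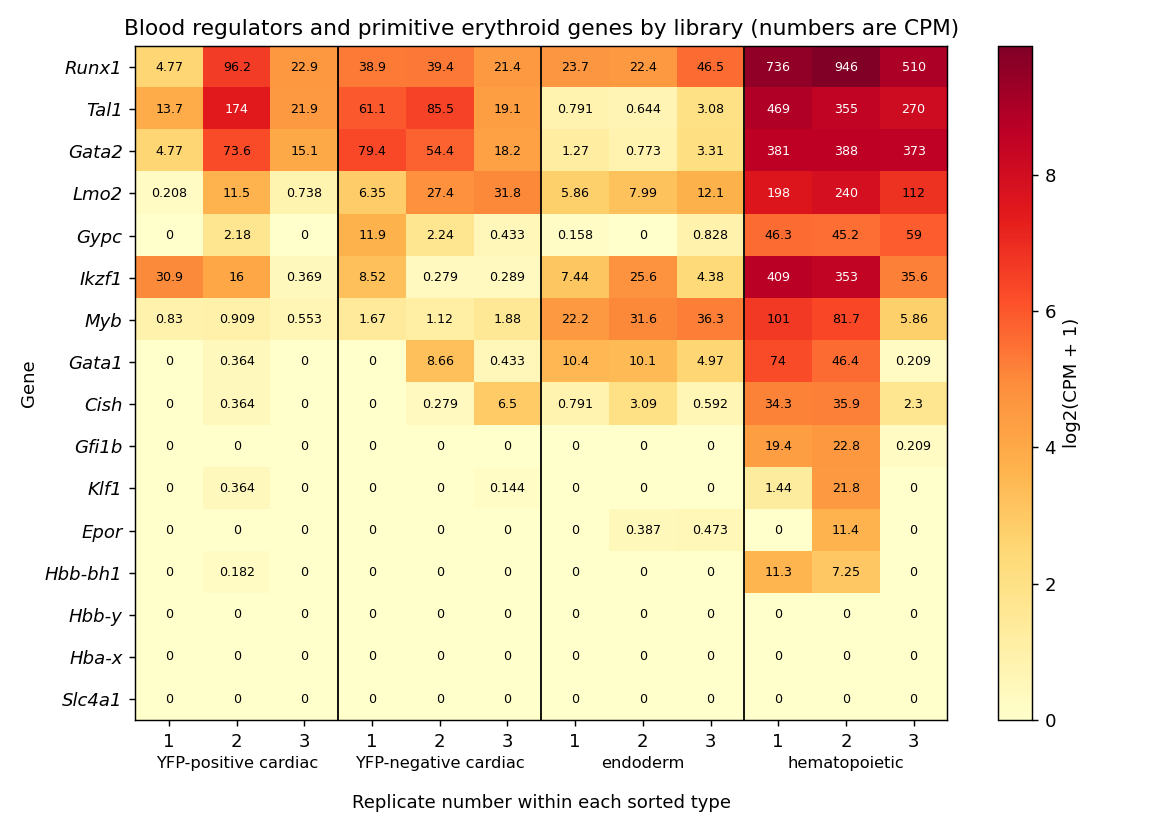
Levels of 16 genes (rows) in the 12 libraries (columns, grouped by sorted type), with the CPM printed in each cell and the shade giving log2(CPM + 1). Runx1, Tal1 and Gata2 are dark in all 3 hematopoietic mesoderm libraries, whereas Gata1, Gfi1b and Hbb-bh1 are read in replicates 1 and 2 and are at or near 0 in replicate 3.

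Markers of other cells the KDR gate could hold also differed between these replicates. Summed over 8 endothelial genes the level was 1162, 1126 and 456 CPM in hematopoietic mesoderm replicates 1, 2 and 3, with 7, 7 and 4 of the 8 above 3 counts, and the genes did not move alike. Pecam1 and Tie1 were at 3 counts or fewer in replicate 3 and Flt1 was at 722, 508 and 188 CPM, whereas Cdh5 was at 101, 159 and 145 and Tek at 220.2, 301 and 122. Emcn was at 0 in all 3. The sum over the 8 endothelial genes was 80.1 to 308 CPM in the other 9 libraries. Summed over 7 cardiac mesoderm genes the level was 75.6, 131 and 483 CPM in the same replicates, against 862 to 914 in YFP-positive cardiac mesoderm. Hand1 alone gave 415 of the 483 CPM in replicate 3, where Mesp1, Mesp2 and Tbx5 were at 0 and Myl7 was at 1.26 CPM against 25.5 and 18.1 in replicates 1 and 2. Pdgfra, at 1.92, 31.4 and 48.1 CPM, and Tnnt2, at 0, 0.173 and 17.8, were like Hand1 highest in replicate 3. The 8 endoderm genes summed to 32.2, 39.7 and 126 CPM, 7 megakaryocyte genes to 36.3, 39.2 and 6.07 and 6 macrophage genes to 44.2, 16.2 and 8.79. The part of these differences in the low reading of replicate 3 was not tested.

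The EPO signal genes did not pass, with 0 of 5 called in each comparison by edgeR and median log2 differences of 2.63, 2.72 and 1.92. Cish, a target of that signal, was at 34.3, 35.9 and 2.30 CPM in hematopoietic mesoderm, and Stat5a, which carries it, at 0.240, 29.2 and 1.26, highest in the library that held Epor. Jak2, the kinase of the receptor, was at 13.4, 40.2 and 222 CPM and Pim1 at 11.05, 21.1 and 28.7, both highest in replicate 3, where Epor was at 0. Of 17 heme synthesis and iron genes 0 were called in any of the 3, and their median log2 differences of -0.08, -0.11 and -0.06 were close to those of all genes, while single genes went both ways. Slc25a38, a mitochondrial carrier needed for heme synthesis, had log2 differences of -3.22, -2.79 and -2.66, and Abcb10, a mitochondrial transporter, of 1.39, 2.55 and 1.86, without passing. Tfrc, the receptor that takes up iron-loaded transferrin, was at 189, 311 and 312 CPM in hematopoietic mesoderm and at 231 to 379 in the other types. Alas1, the form of the heme enzyme found in all tissues, was at 15.1, 28.7 and 38.7 CPM and Fech, which inserts the iron, at 18.5, 43.5 and 11.9, and neither passed.

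Of 9 tested genes of the red cell membrane and its skeleton, Epb41 alone was called, against endoderm, by 0.71 ± 0.19 (SE, edgeR adjusted p = 0.0478), and the call was lost in 10 of 14 alternatives. Without hematopoietic mesoderm replicate 3 it held (0.00761), and Epb41 was also called against YFP-negative cardiac mesoderm (0.0117). The median over the list was 1.60, 1.75 and -0.27 against YFP-positive cardiac mesoderm, YFP-negative cardiac mesoderm and endoderm, and 0.20, 0.72 and 0 with genes at 0 in 1 type set to their bound, leaving out a gene at 0 in both types. Epb41 was at 492, 481 and 300 CPM in hematopoietic mesoderm and at 226 to 384 in the other 9 libraries. Gypc was at 46.3, 45.2 and 59.0 CPM in hematopoietic mesoderm, above every other library, and missed the threshold with an edgeR adjusted p of 0.119, 0.316 and 0.0531.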

How the data were processed

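The authors deposited 1 table of raw read counts per library, whole numbers for 38924 versioned Ensembl genes with 5 summary categories. The submitters' processing notes name mm10, STAR 2.5.0a, Picard, HTSeq 0.6.0 and DESeq2 without roles, and the annotation and strand setting are not given in the sources used here. RNA was purified and amplified with low-input kits, per the labels' protocols. Reads in genes made up 18.3% to 21.5% of each file's total. The summary categories, which include reads in no gene, in more than 1 gene or aligned to more than 1 place, were left out of library sizes and tests.

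Symbols were found for 37607 genes in a gene name table. The tests used edgeR 4.0.16 (R 4.3.3) with TMM scaling, its default expression filter and a quasi-likelihood fit of all 12 libraries, tested two-sided for each pair of types with Benjamini-Hochberg adjustment over all genes tested. CPM values use the scaled library sizes. Locations, exon lengths and unique windows came from a GENCODE annotation of GRCm38, and promoters from RefSeq (GRCm38.p6). Groups and replicate numbers came from the sample titles. Genes named were the 8 members, the other erythroid genes called in a comparison with hematopoietic mesoderm, a set of central blood genes, some of which are not reported here, and the 3 genes most like each member. Likeness was extended to the 4 members below the filter, and Apex2, Cish, Stat5a, Gypc, Ikzf1, Bcl11a, Jak2, Pim1, Slc25a38, Abcb10 and the marker genes named singly were added, after their values were seen. The members, lists and rules were chosen with earlier results of these data known.

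Alternatives were RLE scaling, no filter, a minimum mean of 5 CPM, a replicate block, DESeq2 1.42.0, limma 3.58.1 voom with quality weights, only the 2 types compared, thinning to the smallest library, and omission of single libraries. No filter without hematopoietic mesoderm replicate 3, DESeq2 with no filter, and the alternatives for the members below the filter were added after seeing the data. The edgeR, voom and DESeq2 fits were tested on simulated data, for hematopoietic against YFP-positive cardiac mesoderm only. Differences were placed only in genes with higher mean counts. The other alternatives, the bounds and counting intervals, and genes as low as most members were not simulated. The labels name no molecular identifiers, and amplified reads can repeat a molecule, so floors and counting intervals cover counting error only.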

Additional observations from a re-analysis of the deposited data

How the results depend on the processing

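Depth limits what can be said of the 8 genes: 3 counts were 0.355 to 0.720 CPM, and 4 of the 5 detected genes rest on 1 or 2 hematopoietic mesoderm libraries. Without the filter, voom with quality weights called 1, 2 and 3 of the members in hematopoietic mesoderm. These were against YFP-positive cardiac mesoderm, YFP-negative cardiac mesoderm and endoderm in that order. In the same order and also unfiltered, edgeR without hematopoietic mesoderm replicate 3 called 1, 1 and 2. That fit left out the library where these members were at or near 0 counts. DESeq2 called 1 member between the cardiac fractions, and with no filter 1 there, 1 in hematopoietic mesoderm against endoderm and 1 in YFP-negative cardiac mesoderm against endoderm. Other alternatives called 0, and leaving out single libraries with the filter gave 0 to 0 in every pair. With no filter and without hematopoietic mesoderm replicate 2, Epor turned to -3.94 against endoderm. Klf1 between the cardiac fractions, at 3 counts in all, turned to -0.25 under the replicate block and -1.77 without YFP-positive cardiac mesoderm replicate 2. The cause of these turns beyond the few counts was not tested.

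The other erythroid genes called in hematopoietic mesoderm moved more. Against YFP-positive cardiac mesoderm the count of 4 became 12 in DESeq2, 0 in voom and 0 with only the 2 types fitted, and 0 to 6 when a library was left out (6 without hematopoietic mesoderm replicate 3), being 2 without YFP-positive replicate 1 and 0 without replicate 3. Against YFP-negative cardiac mesoderm the count of 2 became 4 with no filter, 0 under the replicate block, 10 in DESeq2, 5 in voom and 1 with only the 2 types, and 0 to 5 when a library was left out (5 without hematopoietic mesoderm replicate 3, 1 without its replicate 1, and 0 without any 1 YFP-negative library). Against endoderm the count of 7 became 13 in DESeq2 and 13 in voom, and 2 to 8 when a library was left out (8 without hematopoietic mesoderm replicate 3), being 2, 2 and 3 without endoderm replicates 1, 2 and 3 and 4 without hematopoietic mesoderm replicate 1. The cause was not tested. The methods also differed in the share of all genes called, which with no filter against endoderm was 2.85% in edgeR, 9.22% in DESeq2 and 12.2% in voom. The changes in these counts are therefore not results about erythroid genes alone. Same-numbered libraries deviated together with a mean r of 0.00773 to 0.0296 over the pairs of types (lowest -0.0151, highest 0.0372), which is under the 0.1 taken to show pairing. The deposited names of same-numbered libraries do carry the same date, whose meaning is not stated, so a shared day or batch may still link them. A hint from the data is that 9 of the 12 libraries correlated best with libraries of their own number. With the replicate block 0 members were called in each pair. Runx1 and Myb against YFP-negative cardiac mesoderm, Lyl1 against YFP-positive cardiac mesoderm and Epb41 against endoderm (edgeR adjusted p = 0.0562) lost their calls.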
